A study of Mus musculus with 12 samples.

Results

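Dendritic cells carry antigen from tissues to T cells, and 8 genes that mark them were followed here in mouse liver: the transcription factors Irf8, Batf3 and Zbtb46, the surface receptors Clec9a, Cd209a, Flt3 and Itgax, and the maturation marker Cd83. The markers were chosen by name from the 54532 genes of the deposited count table under a rule that uses gene names alone. That choice was made with earlier results of these data known. All 8 were found in it, and 7 of the 8 passed the filter on low counts, Cd209a being the one that did not. The 12 liver libraries, from mice labelled wild type and, per the series title, fed chow, fell into 4 groups of 3, each sampled 9 days after an adenovirus. The ANG8 group received a virus for overexpression of ANGPTL8, and the Ad_GFP group a virus carrying GFP. The shANG8 group received a virus with a short hairpin against Angptl8, and the shCtrl group one with a control hairpin. All mice were therefore exposed to an adenovirus, and no group without virus was analysed here. The series title and design text place ANGPTL8, a liver-secreted protein that restrains lipoprotein lipase activity, in a study of liver lipid metabolism. The labels do not say whether the overexpression virus carried the mouse or the human gene, nor which promoter drove it. They also do not say whether each library came from its own mouse. The p-values reflect only how much libraries varied within groups, a spread estimated over all 4 groups and shared in part across genes.

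Conventional dendritic cells fall into a type 1 lineage, which cross-presents antigen to CD8 T cells, and a type 2 lineage, which mainly primes CD4 T cells. Plasmacytoid dendritic cells, the third lineage, are known for type I interferon. IRF8 and BATF3 act together in the type 1 lineage, the growth factor receptor FLT3 sustains precursors and mature cells, and ZBTB46 is largely restricted to conventional dendritic cells among resident immune cells but is also found in endothelium. In liver, dendritic cells are a small population beside the resident macrophages, the Kupffer cells. Several of the markers are shared with those neighbours: Irf8 is expressed by macrophages and B cells, Itgax (CD11c) by macrophages and NK cells, and Cd83 by activated B cells. The measurements come from whole liver RNA, in which more dendritic cells and more marker RNA per cell cannot be told apart.

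Total counts per library lay between 12537083 and 15144312. Levels are given as CPM, counts scaled to library size with TMM factors (trimmed mean normalisation). Angptl8 averaged 217 ± 84.0 CPM in ANG8 livers and 89.1 ± 8.24 CPM in Ad_GFP livers (SD, n = 3 each), a log2 fold change of 1.28 (SE 0.33, edgeR adjusted p = 0.0201). It averaged 122 ± 37.1 CPM in shANG8 livers and 299 ± 117 CPM in shCtrl livers, a log2 fold change of -1.29 that did not pass the test (SE 0.33, edgeR adjusted p = 0.235). ANG8 library 3 differed from the other 2 of its group. Mitochondrial genes took 39.0%, 43.8% and 22.5% of the counts in ANG8 libraries 1, 2 and 3. The shares were 19.8% to 34.9% in Ad_GFP, 19.3% to 22.9% in shANG8 and 22.9% to 24.2% in shCtrl libraries. ANG8 libraries 1 and 2 thus lay above all libraries of the other groups, and library 3 lay among them. Alb was at 15360, 16328 and 35632 CPM in the 3 ANG8 libraries, against 26824 to 36663 CPM in Ad_GFP libraries.

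In ANG8 livers the type 1 dendritic cell factors Irf8 and Batf3 rose, by 2.16-fold and 1.84-fold over Ad_GFP. Clec9a and Cd83 were also higher in every ANG8 library than in every Ad_GFP library but did not pass the test, and Itgax, Flt3 and Zbtb46 overlapped between these groups. Among the 7 tested markers 2 were called higher and 0 lower, where 13.5% of the 14686 tested genes were called in either direction and 7.08% were called higher. The median log2 fold change was 0.84 over the 7 markers, against -0.0002 over all tested genes. In shANG8 livers against shCtrl livers, 0 of the 7 markers were called, where 0.191% of all tested genes were called.

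Irf8 (ENSMUSG00000041515, chr8:120736358-120756694, plus strand of GRCm38 as for all positions here) encodes a transcription factor that directs precursors toward the type 1 and plasmacytoid dendritic cell and monocyte fates. Its level was 73.4, 98.5 and 60.2 CPM in the 3 ANG8 libraries, against 33.3, 31.5 and 42.8 CPM in Ad_GFP libraries. It was 26.1, 24.1 and 32.1 CPM in shANG8 libraries, against 35.8, 31.5 and 30.9 CPM in shCtrl libraries. The lowest ANG8 library thus lay above all 9 libraries of the other groups, while the shANG8 and shCtrl libraries overlapped. The means were 77.4 ± 19.5 CPM in ANG8 and 35.9 ± 6.11 CPM in Ad_GFP livers (SD, n = 3 each), and the log2 fold change was 1.11 (SE 0.19, edgeR adjusted p = 0.00161). Without ANG8 library 3 it was 1.24 (edgeR adjusted p = 0.00107), and over all single libraries left out it ran from 0.90 to 1.25. With mitochondrial share as a term of the model it was 0.95 (edgeR adjusted p = 0.00569).

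Batf3 (ENSMUSG00000026630, chr1:191097847-191108945, plus strand) encodes a basic leucine zipper factor that type 1 dendritic cells need for their development. It stood at 15.1, 20.3 and 12.5 CPM in ANG8 libraries, against 8.22, 7.85 and 9.95 CPM in Ad_GFP libraries. The shANG8 libraries held 7.12, 6.37 and 6.26 CPM, against 8.69, 6.76 and 6.16 CPM in the shCtrl libraries. As for Irf8, ANG8 library 2 was the highest of the 12 and library 3 the lowest of its group, still above all 9 others. The log2 fold change in ANG8 against Ad_GFP was 0.88 (SE 0.23, edgeR adjusted p = 0.0165), and it was 1.01 without ANG8 library 3 (edgeR adjusted p = 0.0136). The call depended on single libraries: the edgeR adjusted p was 0.0898 without ANG8 library 2, 0.0642 without Ad_GFP library 1 and 0.0654 without Ad_GFP library 2. It was 0.0719 with mitochondrial share as a term of the model.

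The promoter sequences of these genes are shown because Irf8, Batf3 and Clec9a belong to the type 1 lineage and Itgax to dendritic cells and macrophages alike. Each is the 250 bases before the RefSeq start in GRCm38.p6, read from the plus strand, on which all 4 genes lie. Capitals mark matches to the ETS core GGAAGT or to the AP-1 site TGANTCA on either strand (ACTTCC is the ETS core on the other strand). The Irf8 window spans chr8:120736108-120736357, the Batf3 window chr1:191098164-191098413, the Clec9a window chr6:129408612-129408861 and the Itgax window chr7:128129300-128129549.
Irf8: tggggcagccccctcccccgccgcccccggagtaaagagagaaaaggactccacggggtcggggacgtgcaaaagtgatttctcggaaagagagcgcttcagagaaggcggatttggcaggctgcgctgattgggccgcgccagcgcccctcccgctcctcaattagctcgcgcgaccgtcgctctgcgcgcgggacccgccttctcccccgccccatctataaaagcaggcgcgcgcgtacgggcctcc
Batf3: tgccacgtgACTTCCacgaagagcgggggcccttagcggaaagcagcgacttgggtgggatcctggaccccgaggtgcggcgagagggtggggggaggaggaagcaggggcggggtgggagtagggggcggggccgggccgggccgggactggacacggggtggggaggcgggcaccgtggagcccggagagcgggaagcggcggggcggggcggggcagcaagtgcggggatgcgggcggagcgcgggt
Clec9a: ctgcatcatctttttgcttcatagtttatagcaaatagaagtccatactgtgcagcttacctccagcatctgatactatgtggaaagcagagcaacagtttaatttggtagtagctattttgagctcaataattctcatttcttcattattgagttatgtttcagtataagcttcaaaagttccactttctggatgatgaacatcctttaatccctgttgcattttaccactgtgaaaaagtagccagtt
Itgax: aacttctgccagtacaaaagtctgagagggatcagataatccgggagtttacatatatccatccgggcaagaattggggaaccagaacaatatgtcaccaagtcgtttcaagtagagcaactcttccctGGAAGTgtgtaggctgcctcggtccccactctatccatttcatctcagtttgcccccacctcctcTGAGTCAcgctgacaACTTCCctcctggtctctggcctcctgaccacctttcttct

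ETS factors include PU.1, the product of Spi1, and AP-1 sites are read by BATF family dimers. The Itgax window held 2 ETS cores, at 121 to 116 and 41 to 36 bases before the start, and 1 AP-1 site at 56 to 50 bases. The Batf3 window held 1 ETS core, at 241 to 236 bases before the start, and the Irf8 and Clec9a windows held no match to either. Among the windows not shown, Flt3 held an ETS core at 75 to 70 bases and Cd209a at 152 to 147 bases. The Zbtb46 window held an AP-1 site at 61 to 55 bases. Over all 32851 RefSeq promoters of the same length, 19.7% held the ETS core and 6.75% the AP-1 site, and the AP-1 site, which reads the same on both strands, was counted once. Neither GAAA repeated after any 2 bases, the interferon response core found in 2.98% of promoters, nor GGAA followed after any 2 bases by GAAA, the ETS-IRF composite found in 2.30%, occurred in any promoter window matched for the 8 markers. RefSeq promoters were matched for 7 of the 8 markers, Cd83 being without one. Irf8 had a second RefSeq start, also with no match. That start and those used for Batf3, Zbtb46 and Itgax lie inside the spans that the deposited table gives these genes. These matches are letters in a window and were not tested as binding sites.

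Zbtb46 (ENSMUSG00000027583, chr2:181387762-181459426, minus strand) encodes a zinc finger factor that marks conventional dendritic cells and holds them in a quiescent state. It was 5.43, 5.98 and 5.10 CPM in ANG8 libraries, against 5.25, 7.48 and 5.92 CPM in Ad_GFP libraries. The shANG8 libraries held 7.43, 6.84 and 7.45 CPM, against 7.40, 5.47 and 6.54 CPM in shCtrl libraries. The groups overlapped in both comparisons, and Zbtb46 was the only one of the 7 tested markers with a negative estimate in ANG8 livers. The log2 fold change was -0.18 (SE 0.24, edgeR adjusted p = 0.688), with an interval of 2 SE from -0.65 to 0.30. A rise as large as the Irf8 estimate lies outside that interval.

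**Figure D1:**
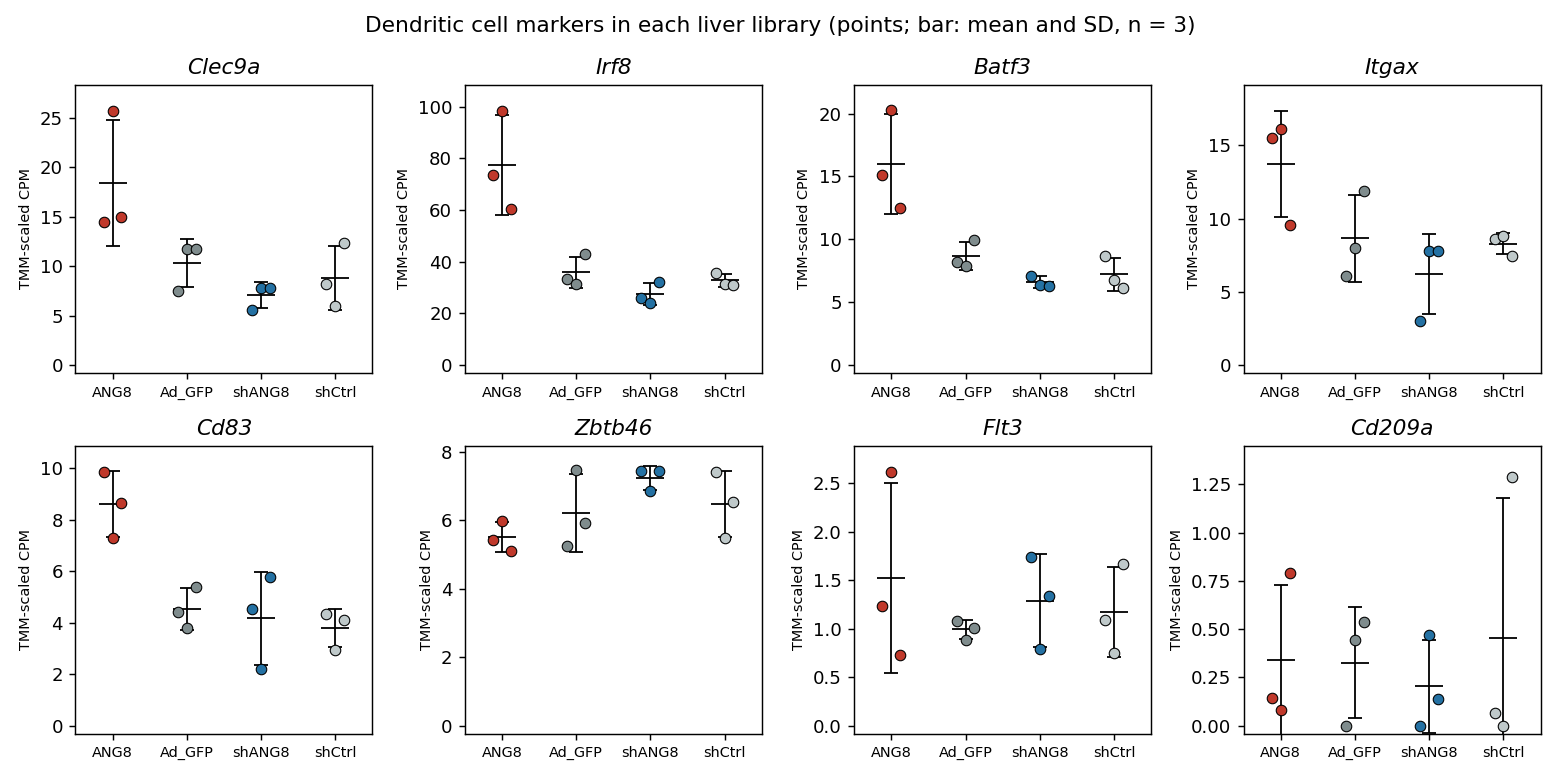
TMM-scaled CPM of each dendritic cell marker (linear axis) in the 12 liver libraries by group, with points for libraries, a bar for the mean and whiskers for the SD (n = 3). For Irf8, Batf3, Clec9a and Cd83 the 3 ANG8 points lie above the other 9, whereas Zbtb46 lies between 5.10 and 7.48 CPM in all libraries and Cd209a has a count of 0 in 3 of them. Whiskers end at the lower edge of the panel where they would run past it.

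Among the receptors, Clec9a (ENSMUSG00000046080, chr6:129408862-129424763, plus strand) encodes DNGR-1, which type 1 dendritic cells use to sense actin exposed by dead cells. Its level was 14.5, 25.7 and 15.0 CPM in ANG8 libraries, against 7.47, 11.7 and 11.7 CPM in Ad_GFP libraries. It was 5.53, 7.79 and 7.80 CPM in shANG8 libraries, against 8.21, 5.94 and 12.3 CPM in shCtrl libraries. The 3 ANG8 libraries lay above the highest other library, shCtrl library 3. The log2 fold change in ANG8 livers was 0.84 and did not pass the test (SE 0.29, edgeR adjusted p = 0.0645). It passed with DESeq2 (adjusted p = 0.0485) and without the filter on low counts (edgeR adjusted p = 0.00956). Clec9a is uncertain for a further reason: 184 of its 3293 exonic bases, or 5.59%, overlap Clec1b on the same strand. Clec1b, the gene of a receptor on Kupffer and sinusoidal endothelial cells and platelets, rose to 42.8 ± 0.922 CPM in ANG8 livers, against 15.9 ± 2.73 CPM in Ad_GFP livers (SD, n = 3 each; log2 fold change 1.43, SE 0.23, edgeR adjusted p = 0.000996). How the counting treated the shared bases is not given in the sources used here, and the part of Clec1b reads in the Clec9a values was not tested.

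Itgax (ENSMUSG00000030789, chr7:128129547-128150657, plus strand) encodes the integrin CD11c of dendritic cells, some macrophages and NK cells. It stood at 15.5, 16.1 and 9.58 CPM in ANG8 libraries, against 6.07, 8.0 and 11.9 CPM in Ad_GFP libraries. The shANG8 libraries held 3.03, 7.79 and 7.80 CPM, against 8.62, 8.81 and 7.45 CPM in shCtrl libraries. The groups overlapped in both comparisons, since ANG8 library 3 lay below Ad_GFP library 3. The log2 fold change in ANG8 livers was 0.66 (SE 0.32, edgeR adjusted p = 0.194). The neighbouring paralog Itgad shares 8.02% of the 50-base words of Itgax transcripts, and its summed counts over the 3 libraries of a group were 7 in ANG8, 6 in Ad_GFP, 7 in shANG8 and 5 in shCtrl livers.

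Flt3 and Cd209a sat at the lower end of what this depth can measure. Flt3 (ENSMUSG00000042817) lies at chr5:147330741-147400489 and Cd209a (ENSMUSG00000031494) at chr8:3743397-3748984, both on the minus strand. Flt3, the receptor of the dendritic cell growth factor FLT3 ligand, stood at 1.23, 2.62 and 0.728 CPM in ANG8 libraries, against 1.08, 0.888 and 1.01 CPM in Ad_GFP libraries. It was 1.74, 0.787 and 1.34 CPM in shANG8 libraries, against 1.09, 0.752 and 1.67 CPM in shCtrl libraries. ANG8 library 2 alone lay above the rest, and the groups overlapped. The log2 fold change in ANG8 livers was 0.60 (SE 0.58, edgeR adjusted p = 0.547), and without that library it was -0.02. Its ligand gene Flt3l was at 5.32 ± 1.54 CPM in ANG8 and 5.55 ± 1.05 CPM in Ad_GFP livers (SD, n = 3 each; log2 fold change -0.06, SE 0.28, edgeR adjusted p = 0.912). Cd209a, one of the mouse DC-SIGN homologs and found on type 2 and monocyte-derived dendritic cells, had raw counts of 2, 1 and 13 in ANG8 libraries, against 0, 6 and 8 in Ad_GFP libraries. Its counts were 0, 6 and 2 in shANG8 libraries, against 1, 0 and 17 in shCtrl libraries. It was not tested, and a count of 0 allows up to 3 counts.

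Cd83 (ENSMUSG00000015396, chr13:43784775-43803132, plus strand) encodes a membrane protein that stabilises MHC class II and CD86 on mature dendritic cells. It was 9.85, 7.29 and 8.67 CPM in ANG8 libraries, against 4.43, 3.78 and 5.38 CPM in Ad_GFP libraries. It was 4.55, 2.20 and 5.77 CPM in shANG8 libraries, against 4.34, 2.94 and 4.10 CPM in shCtrl libraries. All 3 ANG8 libraries lay above the other 9. The log2 fold change in ANG8 livers was 0.92 (SE 0.32, edgeR adjusted p = 0.0625), and it passed with DESeq2 (adjusted p = 0.0369) and in a fit of the compared groups only (edgeR adjusted p = 0.0301).

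In ANG8 livers against Ad_GFP livers, 4 of the 7 tested markers (Irf8, Batf3, Clec9a and Cd83) were higher in every ANG8 library than in every Ad_GFP library, a pattern shown by 17.9% of all tested genes. For the same 4, the 3 ANG8 libraries lay above all 9 others, as they did for 11.2% of tested genes. The markers thus split into 4 with separated libraries, Itgax with 2 of 3 ANG8 libraries above the rest, and Flt3, Cd209a and Zbtb46 with at most 1.

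The knockdown comparison set shANG8 against shCtrl livers, between which the fall in Angptl8 did not pass the test. The Angptl8 mean of shCtrl livers (299 ± 117 CPM) was above that of ANG8 livers (217 ± 84.0 CPM). The mean of shANG8 livers (122 ± 37.1 CPM) was above that of Ad_GFP livers (89.1 ± 8.24 CPM). The 4 groups therefore do not form a series from low Angptl8 in knockdown to high Angptl8 in overexpression. None of the 7 tested markers was called in shANG8 against shCtrl livers by edgeR, 0 had an unadjusted p under 0.05 and DESeq2 called 0. Of all tested genes 0.191% were called in this comparison. The log2 fold changes ran from -0.42 for Itgax (SE 0.33, edgeR adjusted p = 0.820) to 0.16 for Zbtb46 (SE 0.24, edgeR adjusted p = 0.921). Irf8 was at -0.26 (SE 0.19, edgeR adjusted p = 0.810) with an interval of 2 SE from -0.64 to 0.13, and Batf3 at -0.13 with an interval from -0.60 to 0.33. The libraries of the 2 groups overlapped for all 8 markers. Of all tested genes 6.78% were lower in every shANG8 library than in every shCtrl library. The share higher in every shANG8 library was not counted, and the overlap is not read as a trait of the markers.

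The difference between the overexpression and knockdown effects was then tested in the same model. Irf8 was the only marker called, 1 of 7, where 6.62% of all tested genes were called. Its difference was 1.36 on the log2 scale (SE 0.27, edgeR adjusted p = 0.00848), and it passed without ANG8 library 3 (edgeR adjusted p = 0.00489). Batf3 differed by 1.01 (SE 0.32, edgeR adjusted p = 0.0720), Clec9a by 1.16 (SE 0.42, edgeR adjusted p = 0.106) and Itgax by 1.08 (SE 0.46, edgeR adjusted p = 0.179), none of which passed. Cd83 differed by 0.78, Flt3 by 0.46 and Zbtb46 by -0.34, with edgeR adjusted p-values of 0.335, 0.807 and 0.608.

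The control viruses were set against each other, shCtrl against Ad_GFP, to show how the markers vary without an ANGPTL8 virus. None of the 7 was called by edgeR, 0 had an unadjusted p under 0.05 and DESeq2 called 0. Over all tested genes edgeR called 0, or 0%, with 1286 at an unadjusted p under 0.05, and DESeq2 called 38. The estimates lay between -0.27 for Batf3 and 0.23 for Flt3 on the log2 scale, and Irf8 was at -0.13 (SE 0.19). Angptl8 itself averaged 299 ± 117 CPM in shCtrl and 89.1 ± 8.24 CPM in Ad_GFP livers (SD, n = 3 each; log2 fold change 1.75, SE 0.33, edgeR adjusted p = 0.338).

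**Figure D2:**
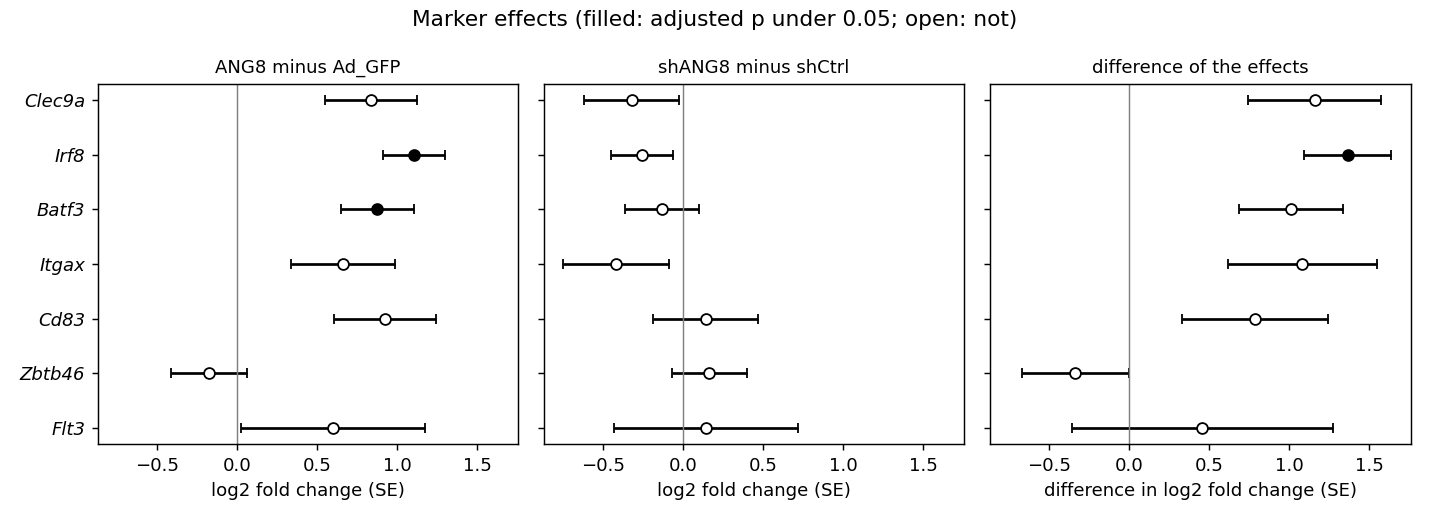
Log2 fold change (points) with its SE (lines to each side) for the 7 tested markers in ANG8 minus Ad_GFP and in shANG8 minus shCtrl, and the difference between these effects. Filled points passed an edgeR adjusted p of 0.05: Irf8 at 1.11 and Batf3 at 0.88 on the left, none in the middle, and Irf8 at 1.36 on the right.

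Divided by gene length, the marker levels in ANG8 livers followed the order Irf8 at 11, Batf3 at 10, Clec9a at 5.59, Cd83 at 3.35, Itgax at 2.86, Zbtb46 at 0.647, Flt3 at 0.247 and Cd209a at 0.214 CPM per kb. Irf8 and Batf3 did not differ beyond their SDs of 2.76 and 2.49 CPM per kb, nor did Cd83 and Itgax, nor Flt3 and Cd209a. In Ad_GFP livers Batf3 stood at 5.43, Irf8 at 5.08, Clec9a at 3.12, Itgax at 1.8, Cd83 at 1.76, Zbtb46 at 0.731, Cd209a at 0.207 and Flt3 at 0.160 CPM per kb. Neighbours that changed places between these groups, such as Irf8 and Batf3, lay within their SDs in both.

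Lists of genes for the dendritic cell lineages were read from the same fit. Of the 13 genes listed for the type 1 lineage, 12 were tested and 3 were called higher in ANG8 livers, with a median log2 fold change of 0.56. As in each list below, this count stands beside the 7.08% of all tested genes called higher. They were Irf8, Batf3 and Wdfy4, which type 1 cells need for cross-presentation. Irf8, Batf3 and Clec9a are also among the markers followed here, so the count and median of this list are not independent of them. Wdfy4 was the only call outside the markers. Of the 12 tested genes 9 had a positive estimate. Mean levels were lower in ANG8 than in Ad_GFP livers for Id2 (66.5 ± 24.5 against 89.4 ± 48.1 CPM) and Itgae (0.517 ± 0.241 against 0.748 ± 0.416 CPM). Wdfy4 was at 12.7 ± 2.35 CPM in ANG8 and 6.02 ± 1.79 CPM in Ad_GFP livers (SD, n = 3 each; log2 fold change 1.07, SE 0.26, edgeR adjusted p = 0.0118). Xcr1, the lineage-defining chemokine receptor gene, was at 2.72 ± 0.994 CPM in ANG8 and 1.21 ± 0.284 CPM in Ad_GFP livers and did not pass (log2 fold change 1.17, SE 0.46, edgeR adjusted p = 0.104).

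For the type 2 lineage 8 of 12 listed genes were tested and 1 was called higher, Sirpa, which macrophages also express at high levels. It was at 128 ± 3.44 CPM in ANG8 and 49.5 ± 8.13 CPM in Ad_GFP livers (SD, n = 3 each; log2 fold change 1.37, SE 0.17, edgeR adjusted p = 0.000152). Clec10a and Irf4, a lectin and a factor of type 2 cells, had log2 fold changes of 0.85 (SE 0.51, edgeR adjusted p = 0.309) and 0.55 (SE 0.54, edgeR adjusted p = 0.555). In the plasmacytoid list 2 of 11 tested genes were called higher, Irf7 (0.93, edgeR adjusted p = 0.00246), an interferon-induced factor, and Lag3 (1.31, edgeR adjusted p = 0.00596), which T cells also express. The defining plasmacytoid genes Siglech, Ccr9 and Tcf4 had log2 fold changes of -0.23, -1.30 and 0.23 and did not pass. Of 10 tested maturation genes 1 was called higher, the costimulator Cd86, at 10.8 ± 1.41 CPM in ANG8 and 4.92 ± 1.19 CPM in Ad_GFP livers (SD, n = 3 each; log2 fold change 1.14, SE 0.30, edgeR adjusted p = 0.0196). Ccr7, the receptor by which mature dendritic cells migrate to lymph nodes, was at 2.43 ± 0.536 CPM in ANG8 and 1.77 ± 0.774 CPM in Ad_GFP livers (log2 fold change 0.45, SE 0.43, edgeR adjusted p = 0.553).

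Broader lists covered dendritic cell development and antigen presentation. Of 20 development genes, 7 were called higher and 0 lower: Irf8, Batf3, Spi1, Zeb2, Csf2rb, Csf2ra and Ikzf1. The Irf8 and Batf3 calls among them are those of the markers given above. The median log2 fold change over the 20 was 0.52, and 13 of the 20 estimates were positive. Mean levels were lower in ANG8 than in Ad_GFP livers for Nfil3 (4.78 ± 1.62 against 7.94 ± 2.65 CPM) and Bcl6 (17.7 ± 7.92 against 25.6 ± 15.8 CPM). Spi1, which encodes the myeloid factor PU.1, was at 76.7 ± 10.9 CPM in ANG8 and 29.8 ± 6.32 CPM in Ad_GFP livers (SD, n = 3 each; log2 fold change 1.36, SE 0.21, edgeR adjusted p = 0.000803). Of 11 MHC class II presentation genes, 8 were called higher, with a median log2 fold change of 1.28. They included the class II transactivator gene Ciita (1.63, SE 0.22, edgeR adjusted p = 0.000273) and the invariant chain gene Cd74 (2.08, SE 0.35, edgeR adjusted p = 0.00232). Macrophages and B cells use the same presentation genes.

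Markers of other cells moved in the same libraries. In ANG8 livers against Ad_GFP livers 10 of 14 Kupffer cell and macrophage genes were called higher, with a median log2 fold change of 1.04, and their summed level ran from 1080 to 1416 CPM in ANG8 libraries and from 462 to 619 CPM in Ad_GFP libraries. Adgre1, the F4/80 gene, was at 21.1 ± 4.82 CPM in ANG8 and 7.36 ± 1.86 CPM in Ad_GFP livers (SD, n = 3 each; log2 fold change 1.52, SE 0.31, edgeR adjusted p = 0.00436). Monocyte genes were called higher for 3 of 6 tested, with sums of 100.2 to 109.9 CPM in ANG8 and 42.5 to 82.2 CPM in Ad_GFP libraries. Of 12 T and NK cell genes 7 were called higher and 1 lower, Cd4 (-1.17, SE 0.31, edgeR adjusted p = 0.0209), with sums of 121 to 143 CPM in ANG8 and 48.3 to 68.3 CPM in Ad_GFP libraries. Genes common to leukocytes were called higher for 4 of 6, with sums of 277 to 285 CPM in ANG8 and 124 to 162 CPM in Ad_GFP libraries. Their part in the Irf8 and Batf3 results was not tested.

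B cells are another source of Irf8 and Cd83, and for their markers edgeR called 0 of 7 tested genes, 0 had an unadjusted p under 0.05 and DESeq2 called 0. Their summed level was 10.5 to 13.2 CPM in ANG8 and 10.3 to 14.9 CPM in Ad_GFP libraries. Of 4 tested neutrophil genes edgeR called 0, with 0 at an unadjusted p under 0.05 and 0 by DESeq2, and their defining gene Ly6g was at 3 counts or fewer in every library. Their sums were 30.3 to 41.1 CPM in ANG8 and 16.6 to 37.8 CPM in Ad_GFP libraries. Endothelial genes, of interest because endothelium holds Zbtb46, were called by edgeR for 0 of 8, with 1 at an unadjusted p under 0.05 and 1 by DESeq2. The endothelial sums were 83.6 to 97.4 CPM in ANG8 and 69.1 to 89.3 CPM in Ad_GFP libraries. Hepatocyte genes were called lower for 7 of 8, and their sums were 22600 to 48784 CPM in ANG8 and 40870 to 61080 CPM in Ad_GFP libraries. Over all tested genes edgeR called 13.5% in either direction in this comparison, and 4069 of 14686 had an unadjusted p under 0.05.

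In shANG8 against shCtrl livers edgeR called 0 genes of any of these lists. At an unadjusted p under 0.05 there were 1 of 12 type 1 genes, 0 of 8 type 2 genes, 1 of 11 plasmacytoid genes, 1 of 10 maturation genes and 4 of 20 development genes. DESeq2 called 0 in each of these 5 lists. Over all tested genes 1164 of 14686 had such a p. In the other lists the unadjusted counts were 3 of 14 macrophage, 4 of 12 T and NK cell, 3 of 4 neutrophil, 0 of 6 monocyte and 0 of 7 B cell genes, and 1 each of the MHC class II, leukocyte, hepatocyte and endothelial genes. Among these DESeq2 called 1 gene each in the macrophage list and in the T and NK cell list. Ptprc, the CD45 gene, was at 17.6 ± 3.94 CPM in shANG8 and 30.4 ± 3.70 CPM in shCtrl livers (SD, n = 3 each; log2 fold change -0.78, SE 0.20, edgeR adjusted p = 0.180). Summed leukocyte genes ran from 79 to 135 CPM in shANG8 and from 128 to 148 CPM in shCtrl libraries. The macrophage sums were 319 to 559 CPM in shANG8 and 356 to 418 CPM in shCtrl libraries, and the T and NK cell sums 38.9 to 53.8 CPM in shANG8 and 64.1 to 84.8 CPM in shCtrl libraries.

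**Figure D3:**
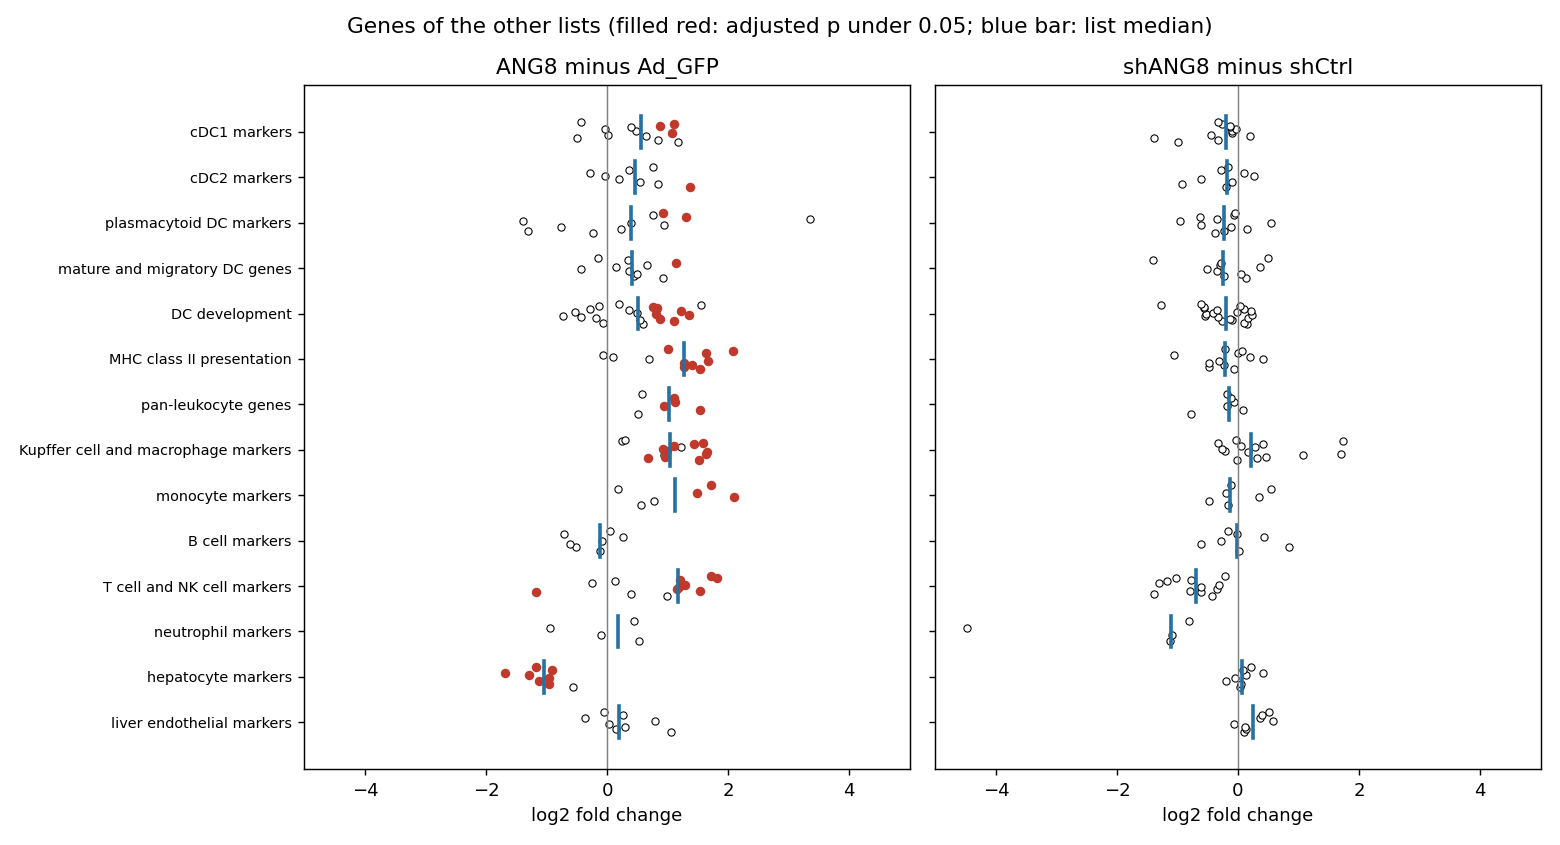
Log2 fold change of each tested gene (points) and the median of each list (blue bar) in ANG8 minus Ad_GFP and shANG8 minus shCtrl, with genes at an edgeR adjusted p under 0.05 in red (cDC1 and cDC2 are the type 1 and type 2 lineages). In the first comparison the medians are 0.56 for type 1 dendritic cell genes, 1.28 for MHC class II genes, 1.04 for macrophage genes and -0.12 for B cell genes.

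The markers were also set against leukocyte genes as a ratio within each library, a description chosen after their values were seen. The denominator was the summed level of the 6 genes common to leukocytes, none of which is among the 8 markers. The summed level of the 8 markers was 48.2%, 61.9% and 40.6% of the summed leukocyte genes in the ANG8 libraries, against 53.2% ± 5.85 in Ad_GFP livers (SD, n = 3), and the groups overlapped. In shANG8 livers it was 54.9% ± 15.3 and in shCtrl livers 51.2% ± 5.86, also overlapping. The ratio therefore overlapped between the groups in both comparisons. Irf8 was the largest part of the marker sum, at a mean of 77.4 of 141 CPM in ANG8 and 35.9 of 75.5 CPM in Ad_GFP livers. The summed ratios, here and below, thus follow Irf8 most. Irf8 alone came to 27.5% ± 6.51 of the leukocyte sum in ANG8 and 25.2% ± 1.46 in Ad_GFP livers, with overlap. Batf3 came to 5.67% ± 1.33 and 6.11% ± 0.259 in the same groups, also with overlap.

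The ratio of Zbtb46 to the leukocyte sum separated ANG8 from Ad_GFP libraries. It was 1.94%, 2.10% and 1.84% of the leukocyte sum in ANG8 libraries, against 3.72%, 6.04% and 3.66% in Ad_GFP libraries. Every ANG8 library was lower, with Zbtb46 levels that overlapped between the groups and leukocyte sums that did not. In shANG8 livers it was 6.61% ± 1.78 and in shCtrl livers 4.81% ± 0.844, with overlap.

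The groups separated or overlapped depending on the denominator. Against Ptprc alone, the summed markers came to 285% ± 32.7 in ANG8 and 219% ± 18.1 in Ad_GFP livers, and to 347% ± 40.4 in shANG8 and 228% ± 18.6 in shCtrl livers (SD, n = 3 each). In both comparisons every library of the ANGPTL8 virus group was higher than every library of its control. Ptprc itself was at 49.3 ± 7.06 CPM in ANG8 and 34.7 ± 6.69 CPM in Ad_GFP livers (log2 fold change 0.51, SE 0.19, edgeR adjusted p = 0.0907). For shANG8 livers the ratio stands beside the Ptprc means given above for the hairpin groups. Against the summed Kupffer cell and macrophage genes the markers came to 12.2% ± 4.09 in ANG8 and 14.3% ± 1.32 in Ad_GFP livers, and to 14.0% ± 3.89 in shANG8 and 17.6% ± 0.158 in shCtrl livers (SD, n = 3 each), with overlap in both comparisons. The Irf8 ratio in shANG8 livers also turned with the denominator. Against macrophage genes it was 4.66%, 7.55% and 6.75% in shANG8 libraries, all lower than the 8.57%, 8.86% and 7.67% of shCtrl libraries, whereas against Ptprc it was 159%, 167% and 146% in shANG8 libraries, all higher than the 117%, 119% and 91.1% of shCtrl libraries.

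**Figure D4:**
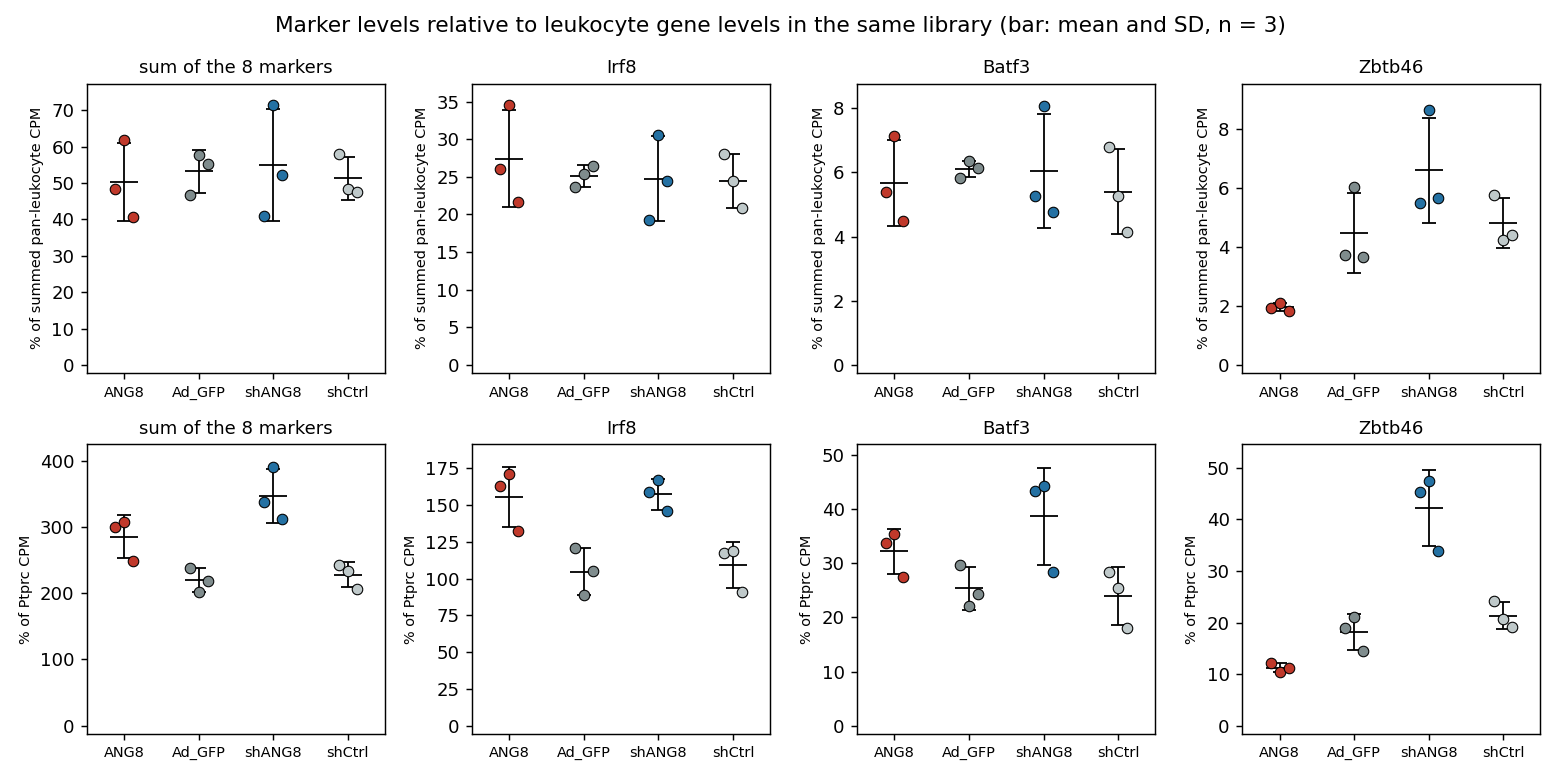
The summed markers, Irf8, Batf3 and Zbtb46 in each library as a percent of the summed leukocyte genes (top) and of Ptprc (bottom), on linear axes with the mean and SD (n = 3). Against the leukocyte sum the Zbtb46 ratio is 1.84% to 2.10% in ANG8 libraries and at least 3.66% in Ad_GFP libraries.

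Across the 12 libraries the profiles of the markers were compared by the root mean square difference of their centred log2 CPM values. The measure uses no group labels, and small values mean alike. Each gene was centred over all 12 libraries, so a difference between groups stays in its profile. Genes that rise alike in ANG8 livers can lie close for that reason alone. Among the markers Batf3 and Irf8 were the closest pair, at 0.162 log2 units, and Itgax and Flt3 the farthest, at 0.752. Among 10865 candidate genes, Batf3 was the third nearest to Irf8, after Pld4 at 0.155 and Slc40a1 at 0.157. Pld4 encodes an endolysosomal nuclease of myeloid cells, and Slc40a1 the iron exporter ferroportin. The nearest genes to Batf3 were Arrb2 at 0.124, Rap1gap2 at 0.129 and Ehbp1l1 at 0.143.

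Cd83 was nearest to Nagk at 0.189, C1qb at 0.204 and Pea15a at 0.216, of which C1qb encodes a complement chain made by macrophages. Clec9a was nearest to Inpp5d at 0.190, Elf4 at 0.195 and Twf2 at 0.213, where Inpp5d encodes the leukocyte phosphatase SHIP1. Itgax lay nearest to Adamtsl4 at 0.152. Zbtb46, which varied least, lay nearest to Med14 at 0.108, Mllt10 at 0.120 and Ahctf1 at 0.129, where Med14 encodes a Mediator subunit and Ahctf1 a nuclear pore assembly factor. Flt3 had no profile closer than Stx7 at 0.310. The libraries share depth and the spread of these livers, and no test was made of these distances.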

How the data were processed

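RNA was measured in 12 mouse liver libraries, made with the NEBNext Ultra RNA kit per the labels' protocols. The authors deposited raw counts per gene. Per the submitters' processing notes, featureCounts 1.5.0-p3, CASAVA 1.8.2 and mm9 were used, in an order and role that those notes as seen here do not give. Aligner, annotation and strand setting were not given in the sources used here. Of the gene identifiers, 54495 are in GENCODE vM21 and 53585 of these (98.3%) have the same GRCm38 coordinates, as do all 8 markers, so GRCm38 positions are given. Genes that overlap on the other strand cannot be told apart from these counts.

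The counts were fitted with edgeR 4.0.16 (limma 3.58.1, R 4.3.3): filterByExpr (14686 genes kept), TMM scaling, and a robust quasi-likelihood F test with 1 mean per group over all 12 libraries. The SE is the absolute log2 fold change divided by the square root of F. Benjamini-Hochberg adjustment ran over all tested genes, with a threshold of 0.05. Replicates differed by more than sampling noise in every pair. Profile distances used log2 CPM with a prior count of 2. Alternatives were DESeq2 1.42.0, its size factors in edgeR, no filter, a replicate block, the mitochondrial share as a covariate, the compared groups alone, and leaving out each library. Named genes were the 8 markers, up to 4 genes of smallest p per list and comparison, defining markers of other cells, Angptl8, and the 3 nearest profiles per marker. Development genes beyond 4, Cd4, Itgad and Clec1b were named after their values were seen. The markers and lists were chosen with earlier results of these data known. Promoter sequences are from RefSeq (GRCm38.p6).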

Additional observations from a re-analysis of the deposited data

How the results depend on the processing

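Irf8 passed the threshold in ANG8 against Ad_GFP livers under all 12 alternatives, with edgeR or DESeq2 adjusted p-values from 1.15e-06 to 0.0108, and in the difference between the effects under all 17 (4.61e-05 to 0.0277). Batf3 passed under 8 of 12 in ANG8 livers and 1 of 17 in the difference. The count of markers called in ANG8 livers, 2, was 4 with DESeq2, 4 without the filter, 4 with the replicate block and 1 with the mitochondrial covariate. It ranged from 1 to 2 when single libraries were left out. In the difference the count of 1 became 2 with DESeq2, 3 without the filter and 2 with the replicate block, and stayed at 1 without any single library. For all genes, the 1978 calls in ANG8 livers became 2572 with DESeq2 and 2600 with the replicate block, and 995 to 1684 without single libraries. For ANG8 livers the all-gene counts without the filter and with the covariate are not given here. The changes in the marker counts are therefore not read as a trait of the markers. The 28 calls in shANG8 livers became 102 with DESeq2, 132 without the filter, 55 with the replicate block and 47 with the covariate, and 21 to 39 without single libraries. The 972 calls in the difference became 1541, 1510 and 1550 with DESeq2, without the filter and with the replicate block, and 473 to 1227 without single libraries. In shCtrl against Ad_GFP the 0 calls became 38, 96 and 5 under the same settings, and 0 to 10 without single libraries. The cause was not tested.

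Estimates that missed the threshold changed sign as follows. With the covariate, the Flt3 difference was -0.19 and Itgax in shCtrl against Ad_GFP was 0.0430. Leaving out single libraries gave -0.0195 to 0.93 for Flt3 in ANG8 livers and -0.15 to 0.78 for its difference. In shANG8 livers it gave -0.23 to 0.0241 for Batf3, -0.15 to 0.48 for Flt3 and -0.17 to 0.44 for Cd83. In shCtrl against Ad_GFP it gave -0.26 to 0.24 for Itgax, -0.20 to 0.0202 for Irf8, -0.0462 to 0.23 for Zbtb46, -0.53 to 0.0211 for Clec9a and -0.10 to 0.49 for Flt3.

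Of the groups compared, libraries of 1 number did not all deviate together: the correlations were -0.0667, 0.116 and 0.149 between ANG8 and Ad_GFP and 0.0345, 0.0824 and 0.186 between shANG8 and shCtrl. Between shCtrl and Ad_GFP the correlations were -0.0381, 0.0725 and 0.0813. Between Ad_GFP and shANG8, which meet only in the difference between the effects, they were 0.235, 0.255 and 0.172. The numbers were not taken to pair the samples, since not every pair of the compared groups was over 0.1 and the labels give no shared source. With the replicate block Clec9a and Cd83 passed in ANG8 livers (edgeR adjusted p = 0.0288 and 0.0255). Depth limits Flt3, with 10 to 32 counts per library, and Cd209a.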
